A study of Mus musculus with 12 samples.

Results

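The DNA replication genes followed here are 39 genes that encode the machinery copying chromosomal DNA in S phase. They were taken by symbol, for the known role of each product. All 39 were present in each of the 3 deposited tables, out of 17445 rows for LMPPs, 16821 rows for CD115-CDPs and 16896 rows for BM pDCs. The RNA came from C57BL/6 mice carrying *Hdac3* fl/fl alleles (control) and from *Hdac3* fl/fl CreERT2 mice (HDAC3-deficient, labelled HDAC3-KO). Both genotypes received tamoxifen by intraperitoneal injection for 5 days, and cells were sorted 7 days after the last dose. The age of the mice was not given in the sources used here. LMPPs are lymphoid-primed multipotent progenitors, the Flt3+CD34+ subset of LSK cells. CD115-CDPs are the CD115-negative common dendritic cell progenitors, and BM pDCs are bone marrow plasmacytoid dendritic cells. Each genotype had 2 libraries per cell type, 12 libraries in all. Exon 3 of *Hdac3* is floxed and CreERT2 is ubiquitous, so that in these mice every tissue can lose HDAC3, including the cells around those sorted. Nothing in the sources said that the 2 libraries of a group came from separate mice, and p values then measure only the spread between these libraries.

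DNA replication proceeds in ordered steps, and the genes were ordered by the same steps. In G1, the origin recognition complex, CDC6 and CDT1 load the ring of MCM2 to MCM7 onto origins (licensing). MCM10, CDC45 and the GINS complex turn the ring into an active helicase, after which DNA polymerases with primase, the PCNA clamp with its RFC loader, and the single-strand binding protein RPA copy the strands. FEN1 and LIG1 join the lagging strand, ribonucleotide reductase (RRM1, RRM2), TYMS and TK1 supply nucleotides, and the CAF-1 subunits CHAF1A and CHAF1B place histones on new DNA. Many of these genes are classical targets of E2F factors, and dividing progenitors are known to express them more than differentiated dendritic cells do.

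*Hdac3* itself was read first as a check of the genotype labels. It was at 56.5 and 66.4 FPKM in control LMPPs and at 16.9 and 9.87 FPKM in HDAC3-deficient LMPPs. In CD115-CDPs it was at 58.2 and 39.6 FPKM in the controls and at 12.1 and 0.93 FPKM in the HDAC3-deficient libraries, and in BM pDCs at 38.9 and 37.8 FPKM in the controls and at 15.6 and 15.9 FPKM. In every cell type the controls were the higher 2 libraries. *Hdac3* RNA remained in every HDAC3-deficient library, so the words without HDAC3 below name the genotype and not an absence of the transcript. The source of the remaining RNA was not tested. FPKM is the count of fragments normalised to transcript length and library size, so it can be compared between genes. Estimated counts of the BM pDC libraries summed to between 18117748 and 18462220, and the depth of the other libraries is unknown. HDAC3-deficient CD115-CDP library 2 stood apart, with 11288 genes detected where the remaining CD115-CDP libraries had 13684 to 15173. Control LMPP library 1 held 9266 FPKM of 8 erythroid markers, mostly hemoglobin, against 105 to 279 in the other LMPP libraries.

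The promoters of these genes are shown because the members moved together in BM pDCs, and because E2F factors are known to act through short GC-rich letters near the start of such genes. RefSeq promoter windows (GRCm38.p6, 250 bases before to 50 bases after the start) were held for 32 of the 39 members. Letters searched on both strands were the E2F-type words TTTGGCGC, TTTCCCGC, TTTGCCGC and TTTCGCGC, the CCAAT box CCAAT, and the cell cycle homology words TTTGAA and TTCGAA, with overlapping matches counted. An E2F-type word was found in 13 of the 32 members (40.6%), against 2.60% of the 27025 symbols in the table and 2.26% of its 32851 windows. The CCAAT box was held by 20 of the 32 (62.5%), against 41.1% of symbols, and the cell cycle homology words by 6 of the 32 (18.8%), against 21.7%. The stretches upstream of the window's start of 6 members follow, trimmed of exons in the GENCODE annotation, 5′ to 3′ on the gene's strand with matched letters in capitals. They are *Mcm5* at chr8:75109259-75109508, plus strand, *Cdt1* at chr8:122567765-122568014, plus strand, *Cdc6* at chr11:98907982-98908150, plus strand, *Rrm2* at chr12:24708004-24708240, plus strand, *Tk1* at chr11:117826093-117826264, minus strand, and *Pcna* at chr2:132253315-132253430, minus strand.
Mcm5: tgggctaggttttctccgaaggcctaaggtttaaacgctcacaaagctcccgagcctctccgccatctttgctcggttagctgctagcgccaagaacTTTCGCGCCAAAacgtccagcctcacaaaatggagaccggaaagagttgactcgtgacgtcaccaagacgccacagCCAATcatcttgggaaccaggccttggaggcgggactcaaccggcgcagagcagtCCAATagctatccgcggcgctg
Cdt1: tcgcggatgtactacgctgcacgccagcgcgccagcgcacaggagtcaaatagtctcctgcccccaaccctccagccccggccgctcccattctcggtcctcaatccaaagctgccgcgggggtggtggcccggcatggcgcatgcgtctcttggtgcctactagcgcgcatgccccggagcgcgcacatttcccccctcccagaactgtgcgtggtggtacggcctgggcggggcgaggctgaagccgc
Cdc6: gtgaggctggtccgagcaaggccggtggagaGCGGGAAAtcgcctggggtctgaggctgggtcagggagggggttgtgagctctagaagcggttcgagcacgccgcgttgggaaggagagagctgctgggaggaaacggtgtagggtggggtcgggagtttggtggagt
Rrm2: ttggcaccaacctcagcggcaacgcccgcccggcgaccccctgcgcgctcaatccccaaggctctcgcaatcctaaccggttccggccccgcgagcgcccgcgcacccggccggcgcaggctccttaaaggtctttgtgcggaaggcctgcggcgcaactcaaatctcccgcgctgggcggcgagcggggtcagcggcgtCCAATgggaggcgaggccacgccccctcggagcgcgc
Tk1: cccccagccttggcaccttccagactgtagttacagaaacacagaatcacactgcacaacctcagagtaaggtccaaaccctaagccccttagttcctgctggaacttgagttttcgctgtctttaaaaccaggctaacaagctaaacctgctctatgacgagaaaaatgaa
Pcna: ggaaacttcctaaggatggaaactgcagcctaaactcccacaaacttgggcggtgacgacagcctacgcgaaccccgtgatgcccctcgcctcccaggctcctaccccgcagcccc

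In *Mcm5* the capitals hold 2 overlapping E2F-type words, 153 and 149 bases before the start on opposite strands, and 2 CCAAT boxes further down. The *Cdc6* stretch holds 1 E2F-type word in reverse orientation, and the *Rrm2* stretch 1 CCAAT box. By RefSeq gene coordinates *Cdc6* begins at chr11:98907709, so its stretch lies inside the gene. *Mcm5* begins at chr8:75109468, so the end of its stretch, with the second CCAAT box, lies inside the gene too. The stretches of *Cdt1*, *Tk1* and *Pcna* hold none of the searched letters. Those of *Tk1* and *Pcna* end 78 and 134 bases before the start, and the *Pcna* window holds a CCAAT box nearer to it, 87 bases before the start and outside the stretch shown. The E2F-type words of 8 further windows are shown with up to 10 bases on either side, with the word in capitals. Their likeness in the capitals follows from the search itself. Their positions are *Orc1* chr4:108579417-108579444 (plus), *Mcm3* chr1:20820263-20820284 (minus), *Mcm6* chr1:128359735-128359762 (minus), *Mcm7* chr5:138171850-138171877 (minus), *Pola1* chrX:93632276-93632303 (minus), *Gins3* chr8:95633508-95633535 (plus), *Cdt1* chr8:122568037-122568064 (plus), *Lig1* chr7:13278842-13278869 (plus).
Orc1: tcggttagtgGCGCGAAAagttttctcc
Mcm3: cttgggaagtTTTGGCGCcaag
Mcm6: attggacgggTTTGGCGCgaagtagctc
Mcm7: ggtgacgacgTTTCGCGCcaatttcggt
Pola1: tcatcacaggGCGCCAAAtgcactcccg
Gins3: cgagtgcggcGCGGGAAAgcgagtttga
Cdt1: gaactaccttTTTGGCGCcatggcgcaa
Lig1: gccaaagtgcGCGCGAAAtctgtgtggc

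Of these words, those of *Mcm3*, *Cdt1*, *Lig1* and *Mcm7* lie after the start, by 39, 33, 27 and 17 bases, and the other ones lie before it. In BM pDCs, the 13 members with an E2F-type word had a median log2 difference of 1.06 (0.13 to 1.87). The 19 without one had 0.94 (−0.19 to 1.77), so the ranges overlapped. In LMPPs the medians were 0.30 with a word and 0.33 without, and in CD115-CDPs −0.095 and −0.113. No test was made. A match describes letters only, and no binding was measured here.

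In BM pDCs, 35 of the 39 replication genes rose in HDAC3-deficient cells and 0 fell, against 21.6% of the 12716 tested genes rising and 22.5% falling (edgeR quasi-likelihood test on rounded estimated counts, Benjamini-Hochberg adjusted p under 0.05). The median log2 difference of the 39 was 1.01, against −0.01 over all tested genes. In FPKM, the HDAC3-deficient mean was 1.84 times the control mean at the median member, and 14 members were more than 2 times higher. Rises came from each of the 8 functional roles. The 4 members without a call were *Gins4*, *Rfc3*, *Rpa3* and *Tyms*. The median SE of a member's log2 difference was 0.10, and the members' own estimated counts ran from 49 to 4076 per library. Counts of 9 members were not whole in every library (tolerance 0.005), as happens when reads that match several loci are divided among them: *Mcm5*, *Mcm10*, *Gins2*, *Pola2*, *Rfc4*, *Lig1*, *Rrm2*, *Tyms* and *Tk1*.

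**Figure D1:**
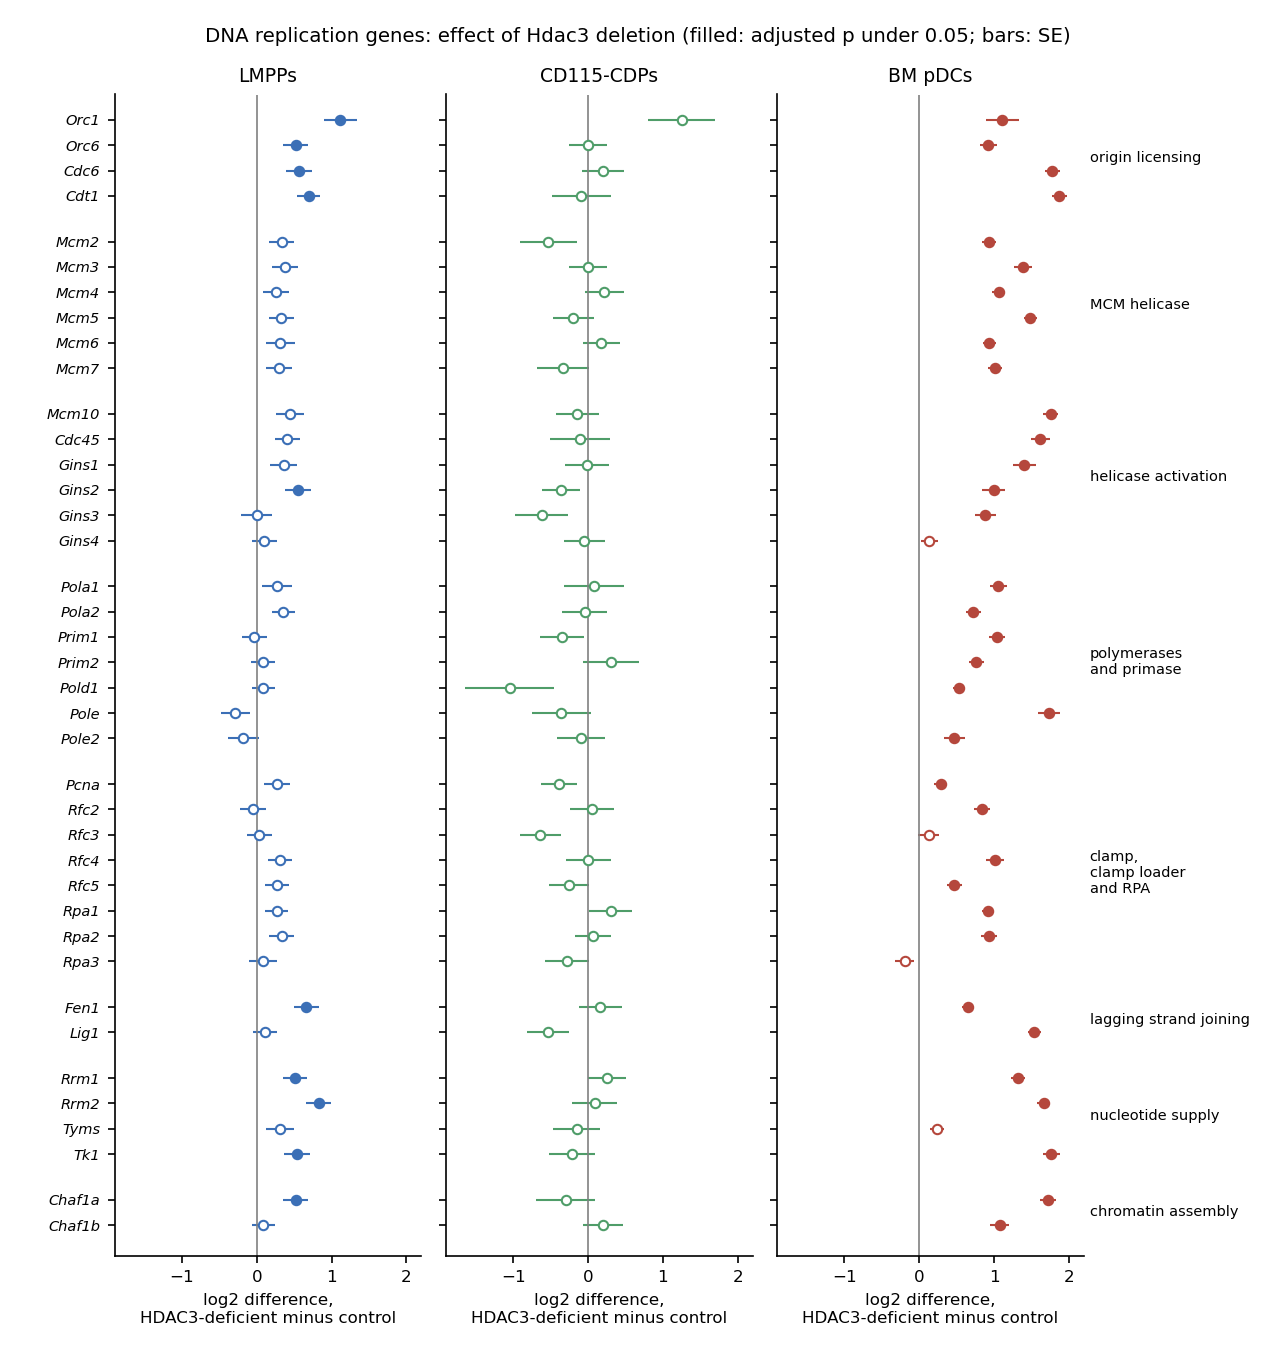
Log2 difference (HDAC3-deficient minus control) of each of the 39 replication genes in LMPPs, CD115-CDPs and BM pDCs, grouped by role. Bars show the SE (from limma in the progenitors, derived from the edgeR statistic in BM pDCs) and filled points adjusted p under 0.05. In BM pDCs 35 points are filled and lie right of 0, in LMPPs 10 are filled, and in CD115-CDPs none is.

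Licensing genes rose together in HDAC3-deficient BM pDCs. *Cdt1*, which loads the MCM ring, was at 12.4 and 11.5 FPKM in the controls and at 38.4 and 41.3 FPKM in the HDAC3-deficient libraries. Its log2 difference of 1.87 (SE 0.10, adjusted p = 4.4e-05) was the largest of the 39. *Cdc6*, the ATPase that recruits the ring with CDT1, was at 5.56 and 5.18 FPKM in the controls and at 17.8 and 17.3 FPKM without HDAC3, a log2 difference of 1.78 (SE 0.10, adjusted p = 4.5e-05). For both, the HDAC3-deficient libraries lay more than 3 times above the controls and close to each other. *Orc6* had the smallest rise of the group, from 9.86 and 10.5 to 16.7 and 17.99 FPKM (log2 difference 0.92, SE 0.11). *Orc1*, the subunit that leaves chromatin and returns in each cycle, was the lowest member of all, at 0.79 and 0.83 FPKM in the controls and 1.89 and 1.49 FPKM without HDAC3 (log2 difference 1.11, SE 0.22, adjusted p = 0.0060).

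All 6 MCM ring genes rose, by between 0.94 and 1.48 on the log2 scale. *Mcm5* rose most, from 26.9 and 26.2 FPKM to 66.8 and 68.2 FPKM (log2 difference 1.48, SE 0.09, adjusted p = 5.0e-05). *Mcm2* rose least, from 25.9 and 23.3 FPKM to 43.2 and 42.8 FPKM (log2 difference 0.94, SE 0.09). Of the 6 helicase activation genes, 5 rose. *Mcm10* went from 2.97 and 2.81 FPKM to 9.74 and 9.24 FPKM (log2 difference 1.76, SE 0.10). Within the 4 GINS subunits, which form one complex, *Gins1*, *Gins2* and *Gins3* rose by 1.41, 0.99 and 0.89. *Gins4* was at 16.9 and 19.6 FPKM in the controls and 18.04 and 18.4 FPKM without HDAC3, so that the groups overlapped (log2 difference 0.14, SE 0.11, adjusted p = 0.36).

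All 7 polymerase and primase genes rose, with a wide range. *Pole*, the catalytic subunit of the leading-strand polymerase, went from 4.68 and 3.43 FPKM to 12.8 and 11.8 FPKM (log2 difference 1.73, SE 0.15, adjusted p = 0.00016). Its accessory subunit *Pole2* rose least, from 4.17 and 4.42 FPKM to 5.65 and 5.19 FPKM (log2 difference 0.47, SE 0.14, adjusted p = 0.033). This call was lost with DESeq2 (adjusted p = 0.17), without a scaling factor (0.10), with limma on FPKM (0.071) and with a replicate block (0.063). It was also lost without control library 1 (log2 difference 0.41) or 2 (0.52). The catalytic and accessory subunits of the same polymerase therefore stood at the ends of the range. *Pola1*, the catalytic subunit that extends primers, and the primase gene *Prim1* rose by 1.06 and 1.04, and *Pold1*, of the lagging-strand polymerase, by 0.54.

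The clamp, clamp loader and RPA genes were the most mixed role, with 6 of 8 rising. *Pcna*, the sliding clamp, was the most abundant member in BM pDCs, at 141 and 147 FPKM in the controls and 167 and 154 FPKM without HDAC3. The groups did not overlap, but the log2 difference of 0.29 (SE 0.08, adjusted p = 0.029) was the smallest rise among the 35. The call was lost without TMM scaling (0.15, adjusted p = 0.20), with limma on FPKM (0.15, adjusted p = 0.16) and with a replicate block (adjusted p = 0.072). It was also lost without control library 1 (log2 difference 0.26) or 2 (0.31). *Rfc4*, a clamp loader subunit, rose most of the group, from 6.62 and 6.75 to 12.9 and 11.8 FPKM (log2 difference 1.01, SE 0.12). *Rfc3*, of the same loader and given in full after its values were seen, was at 12.9 and 16.1 FPKM in the controls and 13.8 and 15.0 FPKM without HDAC3, so that the groups overlapped (log2 difference 0.13, adjusted p = 0.50). *Rpa1* and *Rpa2*, the larger RPA subunits, rose by 0.92 and 0.94. *Rpa3*, the smallest RPA subunit, was the only member with a negative difference, at 19.0 and 18.6 FPKM in the controls and 15.8 and 14.2 FPKM without HDAC3 (log2 difference −0.19, SE 0.13, adjusted p = 0.25). Neither HDAC3-deficient library of *Rpa3* reached a control, and its fall passed with limma on FPKM (−0.32, adjusted p = 0.027).

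Lagging strand, nucleotide supply and chromatin assembly genes completed the set. *Lig1*, the replicative ligase, rose from 12.8 and 12.1 FPKM to 34.2 and 31.9 FPKM (log2 difference 1.54, SE 0.09, adjusted p = 4.5e-05). *Fen1*, the flap endonuclease acting before it, rose less, from 18.5 and 18.3 FPKM to 27.1 and 25.6 FPKM (log2 difference 0.65, SE 0.08). Among the nucleotide genes, *Tk1*, the thymidine kinase of S phase, went from 21.9 and 24.2 FPKM to 66.2 and 73.0 FPKM (log2 difference 1.77, SE 0.11). *Rrm2*, the regulated subunit of ribonucleotide reductase, went from 22.5 and 21.7 FPKM to 62.7 and 64.8 FPKM (log2 difference 1.66, SE 0.09, adjusted p = 4.1e-05). Its partner *Rrm1* went from 21.6 and 22.7 FPKM to 54.4 and 46.8 FPKM (log2 difference 1.33, SE 0.09). All 3 had HDAC3-deficient libraries at more than 2 times the controls. *Tyms*, the thymidylate synthase, was at 19.2 and 21.8 FPKM in the controls and at 21.8 and 21.9 FPKM without HDAC3, with no call (log2 difference 0.23, SE 0.10, adjusted p = 0.084). *Chaf1a* rose from 7.48 and 6.48 to 21.0 and 21.0 FPKM (log2 difference 1.72, SE 0.10), and *Chaf1b*, of the same complex, from 5.70 and 5.96 to 10.3 and 12.1 FPKM (log2 difference 1.07, SE 0.12).

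**Figure D2:**
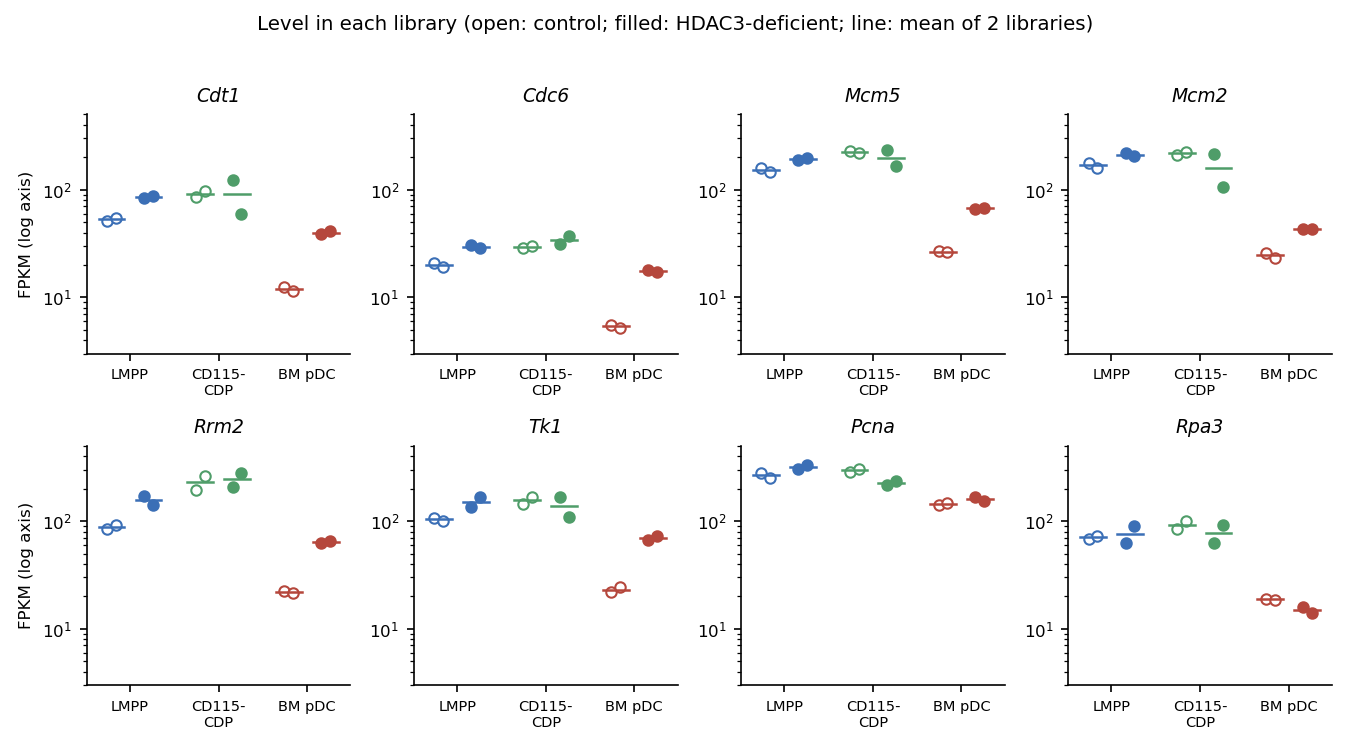
FPKM (log axis) of 8 replication genes in each of the 12 libraries, with open points for controls, filled points for HDAC3-deficient libraries and lines for the mean of 2 libraries. In BM pDCs *Cdt1*, *Cdc6*, *Rrm2* and *Tk1* lie about 3 times above their controls, while *Pcna* moves little and *Rpa3* lies slightly below.

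The count of rises in BM pDCs was between 31 and 36 when any 1 library was left out, 34 with DESeq2, and 33 without a scaling factor. TMM scaling set the overall balance of calls: 49.1% of all calls were rises with it and 35.1% without it, and without it the members' median was 0.88. FPKM carry no such scaling factor, so ratios of the FPKM above are smaller than the log2 differences beside them.

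Cell type markers moved in the same BM pDC libraries. The 10 pDC markers summed to 9169 and 9529 FPKM in the controls and to 4336 and 4023 FPKM without HDAC3, and 7 of the 10 fell and 0 rose. Of 5 stem and progenitor markers, *Kit* and *Cd34* rose (from 1.77 and 1.54 to 8.52 and 9.77 FPKM for *Kit*) and *Myb* and *Sox4* fell, and the list summed to 85.1 and 81.8 FPKM in the controls and 55.0 and 59.2 FPKM without HDAC3. Of 6 granulocyte progenitor markers, 4 rose and 0 fell, with sums of 205 and 225 FPKM in the controls and 356 and 263 FPKM without HDAC3. Of 8 erythroid markers, 3 rose and 0 fell, with sums of 270 and 392 FPKM in the controls and 700 and 222 FPKM without HDAC3. The 3 that rose lay above both controls in each HDAC3-deficient library, also in library 2 with its lower sum. *Car1* was at 4.29 and 4.77 FPKM in the controls and 34.5 and 27.8 FPKM without HDAC3. *Gata1* was at 0.54 and 0.61 against 5.06 and 1.80 FPKM, and *Klf1* at 0.79 and 1.09 against 6.80 and 2.24 FPKM. Of 7 conventional dendritic cell (cDC) markers, 3 rose and 1 fell, with sums of 366 and 348 FPKM in the controls and 483 and 496 FPKM without HDAC3. Of 5 monocyte markers, 2 rose and 1, *Ly6c2*, fell, and the sums were 1359 and 1360 FPKM against 657 and 629 FPKM. These sums were mostly *Ly6c2*, which is also among the pDC markers, at 1305 and 1313 FPKM against 540 and 490 FPKM. The 2 that rose were *Ccr2*, from a mean of 36.2 to 106 FPKM, and *Csf1r*, from 6.3 to 12.9 FPKM. B cell markers had 3 falls and 0 rises among 7, neutrophil markers no call among 5 tested, and T/NK cell markers 1 rise among 3 tested. B cell sums were 43.3 and 45.9 FPKM in the controls and 20.5 and 29.8 FPKM without HDAC3, neutrophil sums 36.2 and 37.0 against 22.4 and 49.8 FPKM, and T/NK sums 5.89 and 5.65 against 11.5 and 14.3 FPKM. No marker of these lists was at 0 in all 4 libraries. *Kit*, *Cd34*, *Myb*, *Sox4*, *Car1*, *Gata1*, *Klf1*, *Ccr2*, *Csf1r* and *Ly6c2* were singled out after their values were seen. In bulk RNA, a larger share of dividing cells and more RNA per cell cannot be told apart, and the part of these markers in the replication result was not tested.

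In LMPPs, 10 of the 39 replication genes rose in HDAC3-deficient cells and 0 fell, against 4.31% of the 11146 tested genes rising and 18.8% falling (limma on log2(FPKM + 0.5), Benjamini-Hochberg adjusted p under 0.05). A log2 difference on this scale understates the change of low genes. The median of the members was 0.31, against −0.23 over all tested genes, and 34 of the 39 differences were positive, against 31.5% of all tested genes. All 4 licensing genes were among the 10, with *Gins2*, *Fen1*, *Rrm1*, *Rrm2*, *Tk1* and *Chaf1a*. Of the licensing calls, those of *Cdc6* and *Orc6* were lost with a replicate block (limma adjusted p = 0.052 and 0.051). They were also lost without limma's trend (adjusted p = 0.074 and 0.098). *Orc1*, from 5.18 and 5.13 to 11.98 and 11.6 FPKM, had the largest difference (1.12, SE 0.22, adjusted p = 0.0033). *Rrm2* went from 84.2 and 91.5 FPKM to 171 and 143 FPKM (0.83, SE 0.16, adjusted p = 0.0033), and *Cdt1* from 51.4 and 55.0 FPKM to 84.2 and 88.1 FPKM (0.69, SE 0.16, adjusted p = 0.0070). In all 3 genes the HDAC3-deficient libraries lay above both controls. *Fen1* rose by 0.66, *Cdc6* by 0.56, *Gins2* by 0.55, *Tk1* by 0.54, and *Orc6*, *Chaf1a* and *Rrm1* by 0.52, 0.52 and 0.51.

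The MCM ring genes were abundant in LMPPs and none passed the test. *Mcm6*, the most abundant, was at 474 and 416 FPKM in the controls and 598 and 509 FPKM without HDAC3, and the 6 differences ran from 0.26 to 0.38. No polymerase gene passed the test, and the 3 smallest differences were those of *Pole* (−0.29), *Pole2* (−0.18) and *Rfc2* (−0.05). *Pole* was at 20.3 and 22.8 FPKM in the controls and 19.8 and 15.5 FPKM without HDAC3, both below both controls. For 28 of the 39 members both HDAC3-deficient libraries lay above both controls, against 17.6% of tested genes, and for *Pole* alone both lay below, against 48.2%. *Pcna* was at 280 and 253 FPKM in the controls and 308 and 333 FPKM without HDAC3 (0.27, adjusted p = 0.27).

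The count in LMPPs moved with single libraries and settings, and 0 members fell under any of them. Without control library 1 or control library 2, 3 members rose, and without HDAC3-deficient library 1 or 2, 11 and 9. A replicate block gave 6, without *Cdc6*, *Orc6*, *Chaf1a* and *Rrm1*. When libraries were rescaled by their median ratio, the median of all genes moved from −0.23 to −0.017, 13 members rose, and rises made up 44.9% of all calls in place of 18.6%. Quantile normalization, with a median of 0.025 over all genes, gave 10 rising members and 47.1%. Markers moved here too: granulocyte progenitor markers (3 of 6 rose, 0 fell) summed to 2331 and 2789 FPKM in the controls and 4709 and 5640 FPKM without HDAC3. Neutrophil markers (6 of 6 fell) went from 612 and 423 FPKM to 46.6 and 16.0 FPKM, and stem and progenitor markers (3 of 5 fell, 0 rose) from 1156 and 1205 FPKM to 791 and 733 FPKM. Their part in the replication result was not tested.

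In CD115-CDPs no replication gene passed the test in either direction, as was the case for all 10832 tested genes (rising 0.0%, falling 0.0%). At an unadjusted p under 0.05, 332 genes were higher and 644 lower, and 1 member was higher and 0 lower. With limma on quantile-normalized values 2 genes fell, and with a replicate block 102 rose and 291 fell, and 0 members were among them. The members' median difference was −0.09, against −0.16 over all genes, with 14 positive and 25 negative. When libraries were rescaled by their median ratio the members' median was 0.07, so its sign depends on the scaling. *Orc1* was again the member with the largest difference, at 5.36 and 3.46 FPKM in the controls and 9.06 and 13.3 FPKM without HDAC3 (1.25, SE 0.45, adjusted p = 0.51). Next were *Prim2* (0.31, SE 0.37) and *Rpa1* (0.30, SE 0.28), both with overlapping libraries. The lowest were *Pold1* (−1.05, SE 0.60), *Rfc3* (−0.64, SE 0.27) and *Gins3* (−0.62, SE 0.35). For 4 members both HDAC3-deficient libraries lay above both controls, against 15.2% of tested genes, and for 7 both lay below, against 28.4%.

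HDAC3-deficient CD115-CDP library 2 carried much of the spread. It was the lowest of the 4 libraries for 16 members and the highest for 18, and library 1 was the lowest for 13 and the highest for 8. The matching shares over all tested genes were not computed, so these counts do not set the members apart. *Pold1* shows the spread: the controls were at 133 and 142 FPKM, HDAC3-deficient library 1 at 125 FPKM and library 2 at 35.0 FPKM. *Mcm2* was at 210.01 and 224 FPKM in the controls, 214 FPKM in library 1 and 105 FPKM in library 2. *Cdt1* was at 85.4 and 96.6 FPKM in the controls, and at 123 and 59.5 FPKM. With library 1 left out, and the lone library 2 assumed to vary like the controls, 3 members rose and 10 fell, and with library 2 left out 0 did either. The SEs of the members were 0.24 to 0.60, against 0.16 to 0.22 with the same kind of limma fit in LMPPs. In BM pDCs they were 0.08 to 0.22, but derived from the edgeR statistic. Differences as small as the LMPP median of 0.31 were therefore not detectable at the CD115-CDP spread. Far larger ones were missed too, as *Hdac3* itself did not pass (log2 difference −3.52, SE 1.01, limma adjusted p = 0.46). The lack of calls in CD115-CDPs therefore does not show a lack of change. Granulocyte progenitor markers were at 1099 and 1280 FPKM in control CD115-CDPs and 3567 and 2486 FPKM without HDAC3, and pDC markers at 2590 and 1928 FPKM against 989 and 520.14 FPKM, in each list with 0 calls.

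**Figure D3:**
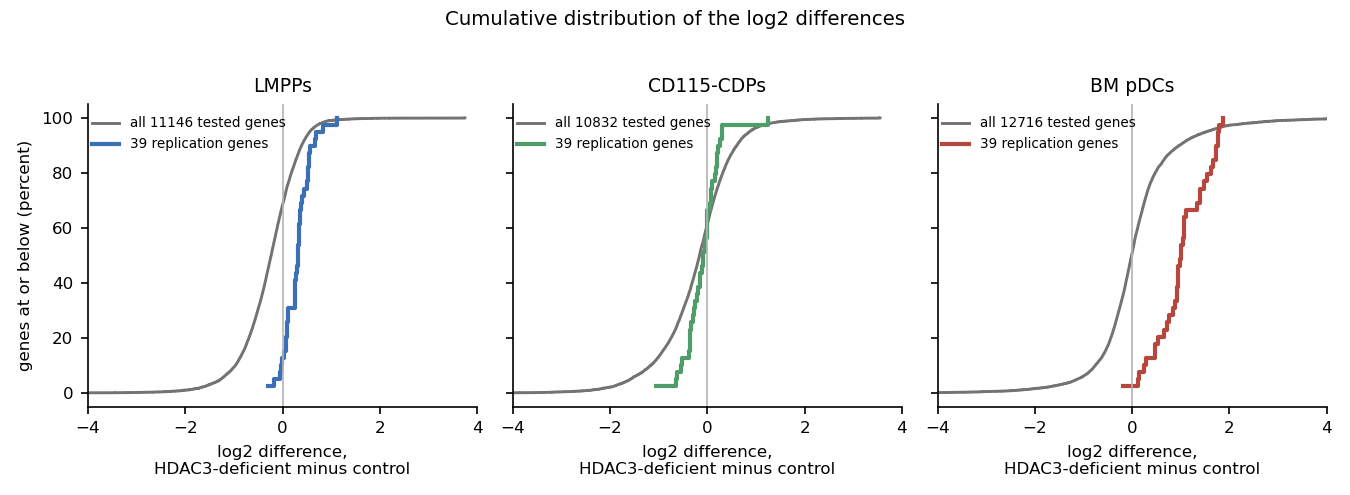
Cumulative share (percent) of genes at or below a log2 difference, drawn between −4 and 4, for all tested genes (grey) and the 39 replication genes (coloured) in each cell type. The replication genes lie right of all genes in LMPPs (medians 0.31 and −0.23) and furthest right in BM pDCs (1.01 and −0.01), and in CD115-CDPs the medians are −0.09 and −0.16.

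The effects in BM pDCs and in LMPPs were set against each other as a difference of the within-table differences (limma on log2(FPKM + 0.5)). It was larger in BM pDCs for 21 of the 39 members and smaller for 0, against 16.3% and 10.5% of the 9552 genes tested, with 32 of 39 positive and a median of 0.55 against 0.08 over all genes. *Pole* had the largest difference of effects, 1.79 (SE 0.25, adjusted p = 0.00096). It rose in BM pDCs and had a negative difference without a call in LMPPs. *Lig1* followed at 1.26 (SE 0.16, adjusted p = 0.00066), then *Mcm10* at 1.11 (SE 0.21, adjusted p = 0.0037) and *Cdc6* at 1.06 (SE 0.18, adjusted p = 0.0024). *Orc1* (−0.38) was among the 7 with a negative value and no call. Leaving out 1 library gave 12 to 24 members with a larger effect in BM pDCs, the lowest without BM pDC control library 2 (12) and library 1 (13). Without HDAC3-deficient LMPP library 1, *Rpa3* had a smaller effect in BM pDCs, and with quantile normalization *Orc1* had one.

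Against CD115-CDPs, the effect in BM pDCs was larger for 4 members and smaller for 0, against 1.41% and 0.152% of 9874 tested genes, with 37 of 39 positive and a median of 0.83 against 0.044 over all genes. The 4 were *Lig1* (1.90, SE 0.28, adjusted p = 0.034), *Mcm10* (1.70, SE 0.26), *Mcm5* (1.53, SE 0.26) and *Cdc6* (1.42, SE 0.24, adjusted p = 0.049). This count was 0 when any BM pDC library or CD115-CDP control library was left out, 27 without HDAC3-deficient CD115-CDP library 1, 30 without library 2, and 0 with a replicate block. Both comparisons used the same BM pDC libraries. Each fit pooled a common residual variance over both cell types, although the CD115-CDP libraries varied more. For these 4 members the SE was below that of the CD115-CDP effect alone. It was 0.278 against 0.283 for *Lig1*, 0.264 against 0.290 for *Mcm10*, 0.258 against 0.274 for *Mcm5* and 0.242 against 0.280 for *Cdc6*. The 4 calls are therefore overconfident.

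Control levels placed the BM pDC change beside the levels of the progenitors. The 3 tables were normalized separately and lysis differed between progenitors and BM pDCs, so levels across tables are described without a test. All 39 members were higher in both control LMPP libraries and in both control CD115-CDP libraries than in both control BM pDC libraries, as were 56.3% and 55.7% of the 9029 genes at 1 FPKM or more in all 6 control libraries. *Orc1*, below 1 FPKM in control BM pDCs, is not among those genes. At the median member, the CD115-CDP level was 7.49 times the BM pDC level and the LMPP level 5.31 times, against 1.30 and 1.34 times over the 9029 genes. A ratio of CD115-CDP to BM pDC level above 3 was found for 37 of 39 members and 15.2% of those genes. The ratio was widest for *Chaf1b* (16.0) and narrowest for *Pcna* (2.06). CD115-CDPs lay above LMPPs without overlap for 28 members, against 36.6% of the 9029 genes, and the ratio was 1.27 at the median member, against 1.01 over those genes. *Rrm2* differed most among the members (87.9 FPKM in LMPPs and 229.7 FPKM in CD115-CDPs).

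By role, the MCM ring was the most abundant in progenitors, with medians of 211 FPKM in control LMPPs and 274 FPKM in control CD115-CDPs, and 25.6 FPKM in control BM pDCs. Licensing genes had medians of 31.2, 42.9 and 7.77 FPKM, and nucleotide supply genes 95.8, 168 and 22.1 FPKM. In mean FPKM, HDAC3-deficient BM pDCs stood between control BM pDCs and control progenitors for all members except *Rfc3* and *Rpa3*, which lay below control BM pDCs. Every member had both HDAC3-deficient BM pDC libraries below both control LMPP and both control CD115-CDP libraries. The share of all genes that did so was not computed, here or after the rescaling below. Among control libraries alone, 56.3% and 55.7% of the 9029 genes were already higher in LMPPs and CD115-CDPs than in BM pDCs. The distances given next also have no value over all genes beside them. On the log2 scale, HDAC3-deficient BM pDCs spanned 30.4% of the distance from control BM pDC to control CD115-CDP level at the median member. *Cdc45* spanned the most, 79.3%, followed by *Pole* (72.3%) and *Cdc6* (69.5%), and *Gins4* (0.072%), *Rfc3* (−0.40%) and *Rpa3* (−14.2%) spanned least. When each library was rescaled over the 13759 genes present in all 3 tables, the CD115-CDP to BM pDC ratio was 6.40 at the median member and the share of the distance 34.4%, and 36 of the 39 lay below the control libraries of both progenitors, the exceptions being *Cdc6*, *Cdc45* and *Pole*.

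**Figure D4:**
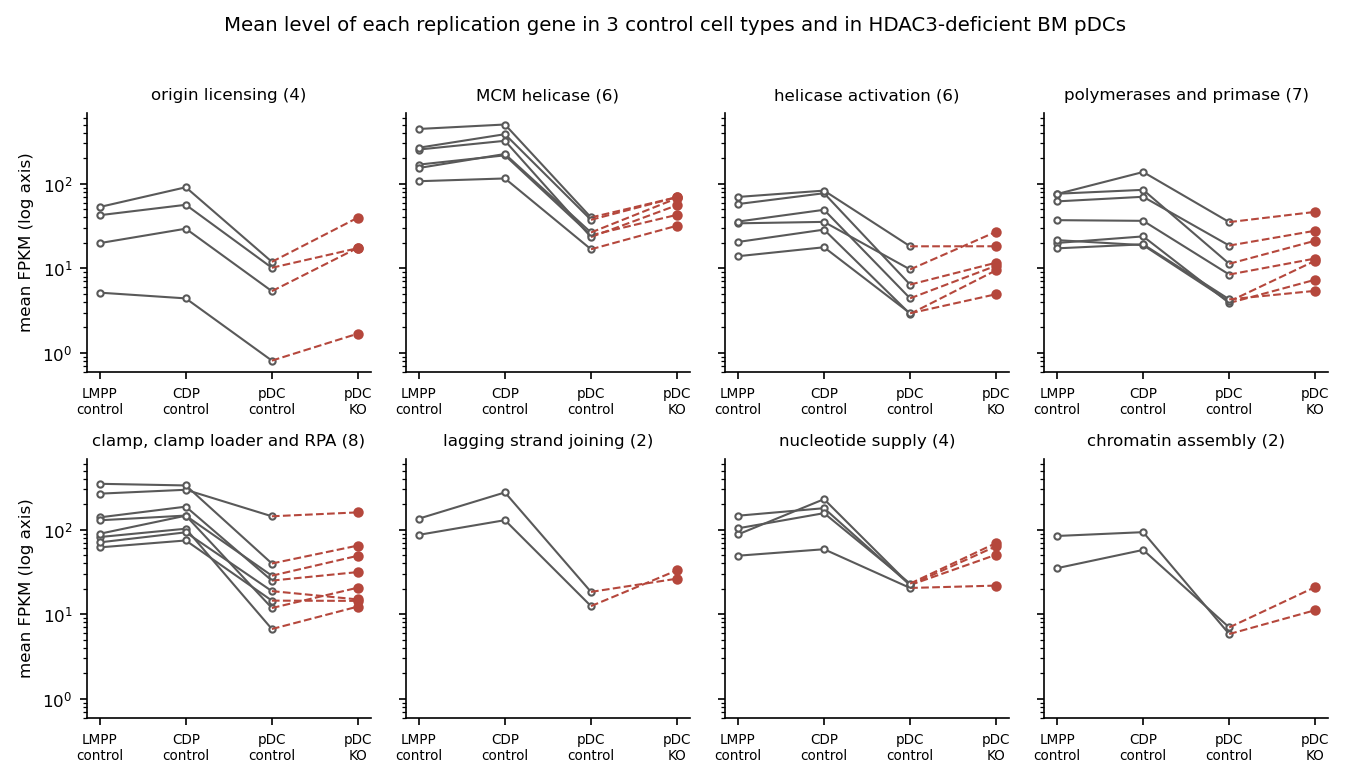
Mean FPKM (log axis, 2 libraries) of each replication gene in control LMPPs, control CD115-CDPs, control BM pDCs and HDAC3-deficient BM pDCs, in 1 panel per role with the number of genes. Lines fall from progenitors to control BM pDCs for all 39 genes, and the dashed lines to HDAC3-deficient BM pDCs rise part of the way back for most of them, with *Pcna*, *Tyms*, *Gins4*, *Rfc3* and *Rpa3* nearly flat.

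Other genes of the pathway gave a wider view. Of 35 further replication genes, 22 rose and 3 fell in HDAC3-deficient BM pDCs (median 0.58), read against the 21.6% and 22.5% of all tested genes. *Wdhd1*, which couples helicase and polymerase, rose from a mean of 4.18 to 15.1 FPKM (log2 difference 1.99, adjusted p = 3.3e-05). *Clspn*, a fork protein of the checkpoint, rose by 1.68, *Ticrr*, needed to fire origins, by 1.76, and *Uhrf1*, which carries methylation through replication, by 1.44. The 3 that fell were *Orc4*, *Top1* and *Pole4*, named after their values were seen, at −0.45, −0.57 and −1.08. Without BM pDC control library 2 the calls of *Orc4* (adjusted p = 0.12) and *Top1* (adjusted p = 0.080) were lost. In LMPPs 2 of the 35 rose (*Uhrf1* and *Dnmt1*, by 0.51 and 0.49) and 2 fell (*Mcm9* and *Top2b*, log2 differences −1.33 and −0.73), against the 4.31% and 18.8% of all tested genes. The calls of *Uhrf1*, *Dnmt1* and *Top2b* were lost without either control library (adjusted p between 0.11 and 0.23), and those of *Uhrf1* and *Dnmt1* with a replicate block (adjusted p = 0.057 and 0.066). In CD115-CDPs 0 of 35 passed.

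Of 18 nucleotide supply genes outside the 39, 13 rose and 2 fell in BM pDCs (median 0.47). *Samhd1*, which degrades deoxynucleotides, rose from a mean of 107 to 205 FPKM (1.08), and *Paics* and *Impdh2*, of purine synthesis, rose by 0.95 and 0.88. *Rrm2b*, the ribonucleotide reductase subunit used outside S phase and a target of p53, fell from 10.7 to 4.55 FPKM (log2 difference −1.10, adjusted p = 0.00044) while *Rrm2* rose. In LMPPs 6 of the 18 rose and 2 fell, led by *Gart*, of purine synthesis, from 107 to 230.1 FPKM (1.10, adjusted p = 0.00043), with *Mthfd2* and *Shmt1*, of one-carbon metabolism, at 1.03 and 0.79, the last lost without control library 2 (adjusted p = 0.14). *Tk2*, the mitochondrial thymidine kinase, fell (log2 difference −1.17) where *Tk1* rose. In CD115-CDPs *Gart* had a difference of 1.23 that did not pass (adjusted p = 0.40), and it passed without HDAC3-deficient library 1 (adjusted p = 0.00077) or 2 (adjusted p = 5.9e-06) and with a replicate block (adjusted p = 0.014).

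Of 25 tested regulators of the G1/S transition, 16 rose and 0 fell in BM pDCs (median 0.78). *Ccnd2*, a D-type cyclin, rose from a mean of 5.26 to 23.2 FPKM (2.27, SE 0.10), and the E2F-family repressors *E2f7* and *E2f8* rose by 1.75 and 1.99. *Cdkn1a*, which encodes the CDK inhibitor p21, rose in the same libraries from 3.73 to 35.0 FPKM (3.37, SE 0.17, adjusted p = 3.7e-05). In LMPPs 6 of 24 rose and 2 fell, with *Cdkn1a* from 31.6 to 88.1 FPKM (1.47), *Ccnd1* from 3.85 to 15.0 FPKM (1.83), *Ccne1*, the cyclin of S phase entry, by 0.92, and a fall in the CDK inhibitor *Cdkn2c* (log2 difference −1.52). In CD115-CDPs *Cdkn1a* was at 62.7 FPKM in the controls and 149 FPKM without HDAC3, without a call (1.25, adjusted p = 0.32), and passed without HDAC3-deficient library 1 (adjusted p = 6.7e-05) or 2 (adjusted p = 4.5e-05) and with a replicate block (adjusted p = 0.014).

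All 32 mitosis genes rose in BM pDCs (median 1.47). *Aurka*, a spindle kinase, rose from a mean of 11.2 to 47.6 FPKM (2.23, SE 0.10), *Kif20a*, a kinesin of cytokinesis, by 2.29, *Top2a*, which untangles chromosomes, by 1.95, and *Cenpe*, a kinetochore motor, by 1.90. In LMPPs 6 of the 32 rose and 1 fell with a median of −0.0045, whereas the replication genes' median was 0.31. *Aurka*, *Cdk1*, *Birc5* and *Aurkb* rose there by 0.96, 0.66, 0.63 and 0.57, and the calls of *Cdk1*, *Birc5* and *Aurkb* were lost without either control library (adjusted p between 0.050 and 0.22). In CD115-CDPs 0 of 32 passed (median −0.21).

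**Figure D5:**
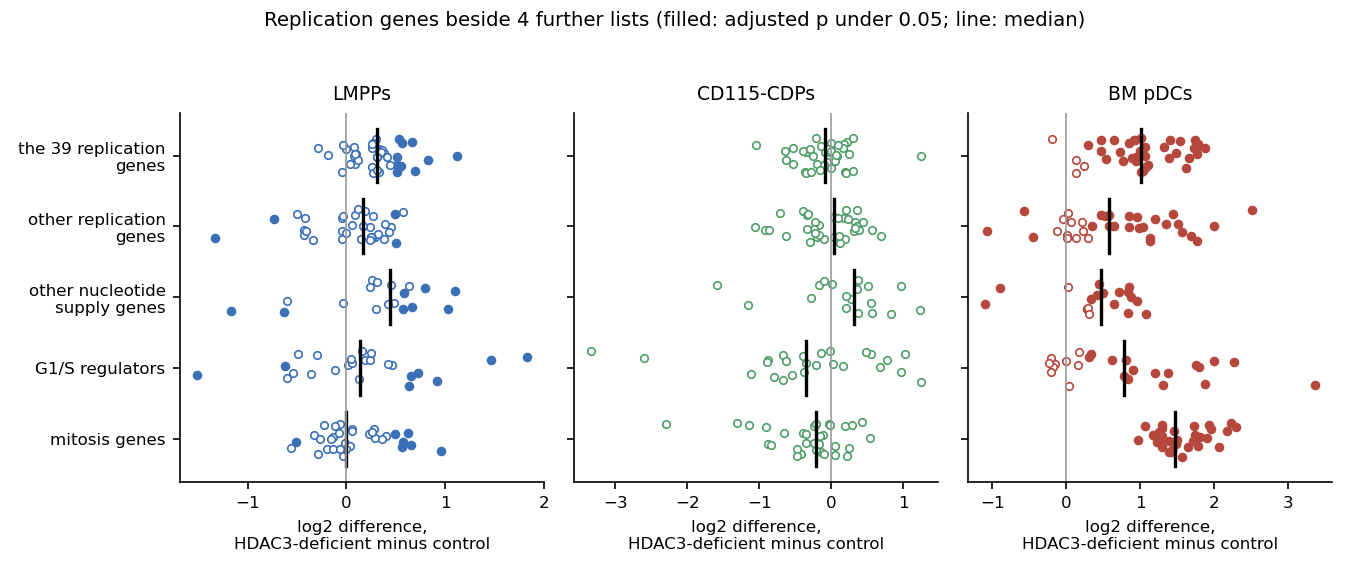
Log2 difference of each tested gene of the 39 replication genes and of 4 further lists in the 3 cell types, with filled points for adjusted p under 0.05 and a black line for the list's median. In BM pDCs all 32 mitosis genes and 35 of the 39 replication genes are filled and lie right of 0, and in LMPPs the medians of the 5 lists lie between −0.0045 and 0.44.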

How the data were processed

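RNA-seq of 12 libraries was analysed, 2 per genotype in LMPPs, CD115-CDPs and BM pDCs. LMPPs and CD115-CDPs were lysed in a low-input buffer and BM pDCs in Trizol, and libraries followed Illumina or BGI protocols, without a record of which library followed which. Processing notes of the submitters list mm10 with the tools Bowtie2 and RSEM, with versions not given in the sources used here. The authors deposited FPKM for each library, and for BM pDCs also TPM (not used) and RSEM expected counts. The authors' averaged columns were not used. Depth is known only for BM pDCs (18117748 to 18462220 expected counts per library).

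LMPPs and CD115-CDPs were tested with limma 3.58.1 (trend) on log2(FPKM + 0.5) over genes at 1 FPKM or more in at least 2 of the 4 libraries. BM pDCs were tested with edgeR 4.0.16 (filterByExpr, TMM, quasi-likelihood) on expected counts rounded to whole numbers. Their SE is the absolute log2 difference divided by the square root of the quasi-likelihood F, unlike the SE of limma. Differences between cell types were tested with limma as the contrast of the within-table differences, with a common residual variance per gene over both cell types. All tests were two-sided, with Benjamini-Hochberg adjustment over all genes tested, under R 4.3.3. An exact permutation test of 2 against 2 libraries cannot give a p below 0.333 and was not used. Scripts were tested on simulated data. Alternatives were DESeq2 1.42.0, other scalings, filters and pseudocounts, a replicate block, and leaving out each library.

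The 39 genes, the further lists, the markers and the motifs were chosen with earlier results of these data known. Values per library were given, for each role, for the members with the largest and smallest log2 difference in BM pDCs and for *Mcm2*, *Mcm5*, *Cdc6*, *Cdt1*, *Pcna*, *Rrm1*, *Rrm2*, *Tk1* and *Rpa3*, and the 3 largest and 3 smallest were named in the progenitors. Up to 4 genes with the smallest p were named from each further list and comparison, and *Hdac3* as the genotype check.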

Additional observations from a re-analysis of the deposited data

Results flagged for a closer look

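The effect of HDAC3 loss differed between cell types for several replication genes by a test of the difference itself (limma, adjusted p under 0.05). Between BM pDCs and LMPPs it differed for 21 of 39, with log2 differences of effects of 1.79 for *Pole*, 1.26 for *Lig1*, 1.11 for *Mcm10* and 1.06 for *Cdc6*. Between BM pDCs and CD115-CDPs it differed for 4 of 39, at 1.9 for *Lig1*, 1.7 for *Mcm10*, 1.53 for *Mcm5* and 1.42 for *Cdc6*. The count of 4 was 0 with a replicate block and when any BM pDC library or CD115-CDP control library was left out. Each value is the difference in BM pDCs minus that in the progenitor, and the same BM pDC libraries entered both. A common variance was fitted over the 2 cell types compared, which understates the error of the CD115-CDP comparison and may do so for some members of the LMPP comparison.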

How the results depend on the processing

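With 2 libraries per group, leaving 1 out leaves a lone library that is assumed to vary like the others. Members rising in LMPPs (10) numbered 2 with no filter on low values, 4 without trend, 6 with a replicate block, and 3 to 11 when 1 library was left out. Their median (0.31) was 0.55 after rescaling by the median ratio, 0.21 after quantile normalization, and 0.25 to 0.36 with 1 library left out. In CD115-CDPs, leaving out 1 library gave 0 to 3 rising and 0 to 10 falling members. Their median (−0.09) was 0.070 after rescaling by the median ratio, −0.023 after quantile normalization, and −0.15 to −0.0084 with 1 library left out. In BM pDCs 1 member fell with limma on FPKM, 31 to 36 rose with 1 library left out, and the median (1.01) was 0.88 without a scaling factor, 0.82 with limma on FPKM, and 0.97 to 1.02 with 1 library left out. Rises among all BM pDC calls were 49.1%, 35.1% without a scaling factor and 33.7% with limma on FPKM.

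The count between BM pDCs and LMPPs (21) was 12 to 25 with 1 library left out, where 1 of the 25 (*Rpa3*, without HDAC3-deficient LMPP library 1) had a smaller effect in BM pDCs, and 14 with a replicate block, and that between BM pDCs and CD115-CDPs (4) was 0 to 30, 0 with a replicate block and 2 without trend. The CD115-CDP to BM pDC level ratio (7.49) was 6.40 when libraries were rescaled over shared genes. After rescaling by the median ratio and quantile normalization, 4 and 2 of the 39 differences changed sign in LMPPs and 10 and 4 in CD115-CDPs, and with 1 library left out up to 4 in LMPPs, 14 in CD115-CDPs and 1 in BM pDCs. Of the members given with values, those that did were *Rfc3* in BM pDCs (−0.0093 without a scaling factor, −0.0023 with limma on FPKM, and −0.022 to 0.28 with 1 library left out, the lowest without control library 1), *Pole2* in LMPPs (0.046 and 0.069 under the rescaling and quantile settings, and −0.38 to 0.017 with 1 library left out, the highest without HDAC3-deficient library 1), *Rfc2* in LMPPs (0.19 rescaled, and −0.11 to 0.021 with 1 library left out, the highest without control library 1) and *Prim2* in CD115-CDPs (−0.13 to 0.75 with 1 library left out, the lowest without HDAC3-deficient library 2). No member that had passed the test changed sign under any of these settings, and the cause was not tested.

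Library numbers were not said to pair samples. Deviations of same-numbered libraries correlated across genes at −0.103 in LMPPs, 0.243 in CD115-CDPs and −0.244 in BM pDCs. With the replicate block 33 members rose in BM pDCs, and *Hdac3* passed in CD115-CDPs. The unknown depth of the progenitor libraries leaves the counting error of their values unknown.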
